A study of Mus musculus with 16 samples.

Results

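The genes followed here are 34 genes of the lysosome and of the secretory granule body, measured in cultured mouse mast cells. They were taken by name: an array probe belonged to the set if the gene name in the array files was one of the 34 symbols or an older symbol of the same gene (serglycin, for example, also as Prg1). In all 57 probes carried such a name, and every one of the 34 genes was among the 17082 genes tested in at least 1 comparison. The set comprised 9 cathepsins and other proteases, 9 glycosidases and other hydrolases, 7 membrane proteins, 4 genes of the proton pump, and 5 soluble cofactors, matrix components and regulators.

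The study compared an agonist antibody against TIM-3, an immunoglobulin-family receptor encoded by Havcr2, with control goat IgG on 16 arrays that each carried both samples. Mouse bone marrow cells were grown for more than 4 weeks with 10% serum, IL-3 (5 ng/ml) and stem cell factor (40 ng/ml), and the resulting cells, which the labels call immature mast cells, were more than 90% positive for the IgE receptor alpha chain and c-kit. Antibody or IgG was given at 15 ug/ml. Resting cells received this alone for 2 h or 16 h, and activated cells were first loaded for 1 h with IgE against DNP (5 ug/ml) and then received the antigen DNP-HSA (100 ng/ml) together with antibody or IgG for the same times. There were 4 arrays in each of the groups resting 2 h, activated 2 h, resting 16 h and activated 16 h, numbered as replicates 1 to 4. The labels give no genotype, strain or age for any group, and nothing in them ties replicates to separate cultures or mice. The p-values therefore speak of the scatter among these arrays, part of which may be technical.

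Lysosomes hold acid hydrolases that are made in the endoplasmic reticulum, carried to the organelle by sorting receptors and switched on by acid from a membrane-bound proton pump. In mast cells the secretory granule is a lysosome-related organelle: beside histamine, serglycin proteoglycan and serine proteases it stores lysosomal enzymes, and release of beta-hexosaminidase and surface display of CD63 are the usual readouts of degranulation. Transcription factors of the TFEB and MITF family bind a short palindromic motif, the CLEAR element, in the promoters of many lysosomal genes.

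RefSeq promoters (build GRCm38.p6, 250 bases before to 50 after the start site) were matched for 30 of the 34 genes. The CLEAR core TCACGTGA, which contains the E-box CACGTG, was found on either strand in 6 of these 30 (20%), against 304 of 27025 genes (1.12%) and 9 of 77 other lysosomal genes (11.7%). The E-box itself was in 10 of 30 (33.3%; 8.09% of all genes), and the related M-box TCATGTGA in 5 of 30 (16.7%; 1.15% of all genes), namely Ctss, Tpp1, Gla, Ppt1 and Grn. The 6 CLEAR windows are shown because the set is defined by the organelle that this motif marks, and the E-box window of Ctsl and the M-box window of Ctss because the antibody comparisons turn on these genes. Each line is 5′ to 3′ on the gene's strand, with the motif in capitals.
Ctsa (chr2:164833749-164833778, plus strand): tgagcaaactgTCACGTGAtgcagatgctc
Ctsd (chr7:142387908-142387937, minus strand): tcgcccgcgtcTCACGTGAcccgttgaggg
Gla (chrX:134601215-134601244, minus strand): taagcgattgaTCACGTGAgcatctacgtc
Mcoln1 (chr8:3500462-3500491, plus strand): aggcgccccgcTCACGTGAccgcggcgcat
Atp6v0d1 (chr8:105566050-105566079, minus strand): ccctactgcggTCACGTGAgacgcggtgcg
Atp6v1a (chr16:44139373-44139402, minus strand): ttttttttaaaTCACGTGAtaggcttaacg
Ctsl (chr13:64370740-64370767, minus strand): gcgttagaagcCACGTGctgatctaaat
Ctss (chr3:95526793-95526822, plus strand): ttgtggatgctTCATGTGAcaagctccgat
Counting the start site as 1 and the base before it as -1, the first base of the motif lay at -13 in Ctsa, -99 in Ctsd, -228 in Gla, -46 in Mcoln1, -4 in Atp6v0d1 and -132 in Atp6v1a. Both Ctsa and Gla held a second copy, at 5 and -195, and for them the first is shown. A match describes these letters only. The 6 genes did not move in 1 direction: from 2 h to 16 h in activated IgG-treated cells the log2 difference was 1.05 for Mcoln1, 0.59 for Ctsa, -0.18 for Ctsd and -0.83 for Gla, all called, and -0.12 for Atp6v0d1 and -0.08 for Atp6v1a, neither called.

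The share of spots that passed the background flag was 53.7% to 62.1% per array for Cy3 and 54.8% to 67.7% for Cy5, with 0 saturated spots. All 34 genes passed it in both channels on all 16 arrays. All 12 mast cell markers tested were measured, with a mean log2 Cy3 level of 13.84 to 14.35 per array. Of 14 macrophage and dendritic cell markers 13 were measured (C1qa did not pass the filter), of 10 neutrophil markers 5 (Ngp, Ltf, Camp, Elane and Ly6g did not pass), and of 3 basophil markers 3. The summed macrophage marker signal ran from 14.97 to 16.34 (log2) in resting cells at 2 h, 14.86 to 16.17 in activated cells at 2 h, 15.40 to 16.53 in resting and 14.75 to 16.30 in activated cells at 16 h. In cultures measured in bulk, fewer cells of a type and less RNA per cell cannot be told apart. The ratio deviations of resting 2 h replicate 3 from its group mean correlated over genes with those of resting 16 h replicates 1 (0.38) and 3 (0.64). Other pairs of arrays from different groups lay between -0.61 and 0.56, a range that holds the first value and not the second. The 0.56 was that of resting 2 h replicate 3 with activated 2 h replicate 1, which was kept. Resting 2 h replicate 3 and resting 16 h replicates 1 and 3 were left out together as a setting chosen after the data had been seen. On these 3 arrays the brighter Grn probe also had its largest ratios. Values that change without them are given.

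On every array anti-TIM-3 RNA carried Cy5 and IgG RNA Cy3, with no dye swap. A log2 ratio above 0 is higher with the antibody, and within a group an antibody effect and a probe's dye bias cannot be told apart; a bias that is the same on all arrays cancels in a difference between groups. In resting cells at 2 h, 4 of 33 genes tested were called higher and 7 lower (limma, Benjamini-Hochberg adjusted p under 0.05), where 7.07% and 6.92% of all genes tested were called higher and lower (14% in either direction). In activated cells at 2 h the counts were 6 and 9 of 34 against 17.1% and 16.3% (33.3% in all). In resting cells at 16 h they were 7 and 5 of 34 against 11.7% and 9.95% (21.6% in all), and in activated cells at 16 h they were 4 and 12 of 34 against 16.9% and 13.2% (30.1% in all). The median log2 ratio of the set lay at -0.02, -0.03, 0.04 and 0.00 in these groups, beside medians of 0.00 to 0.01 over all genes. The balance of higher and lower calls depended on the normalization: with median centring in place of loess, 28, 28, 32 and 32 genes were called, all of them higher, beside 61.3%, 64.8%, 73.1% and 79.4% of all genes called (59.4%, 60.3%, 67.6% and 70.7% higher), while the median of all genes moved to 0.21, 0.22, 0.30 and 0.39. The sign of a within-group ratio is therefore a sign relative to genes of like brightness.

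Some genes had the same sign in all 4 groups. Cd63, Atp6v1a and Srgn were higher in every group, as 2.25% of all genes were. Man2b1, Mcoln1 and Psap were lower in every group, as 1.67% of all genes were, and with median centring these 3 turned to values between 0.0016 and 0.67. A further 9 genes were called in no group: the proteases Ctsa, Ctsd and Ctsz, the hydrolases Gla and Arsb, the membrane proteins Scarb2, Npc1 and Laptm5, and the pump subunit Atp6v0d1. In resting and activated cells at 2 h, then at 16 h, second probes gave -0.18, -0.07, -0.10 and -0.07 for Ctsa. They gave -0.28, -0.26, 0.15 and -0.13 for Ctsd and -0.16, -0.20, -0.11 and -0.13 for Ctsz. For Scarb2 they gave -0.07, 0.06, -0.03 and -0.07, and for Laptm5 -0.16, -0.09, 0.12 and 0.19. Whether these second probes passed is not given. Ctss alone was called in both directions, and the other 18 genes were called in 1 to 3 groups in 1 direction. The shares of all genes called in no group, in both directions or in 1 to 3 groups are not given.

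**Figure D1:**
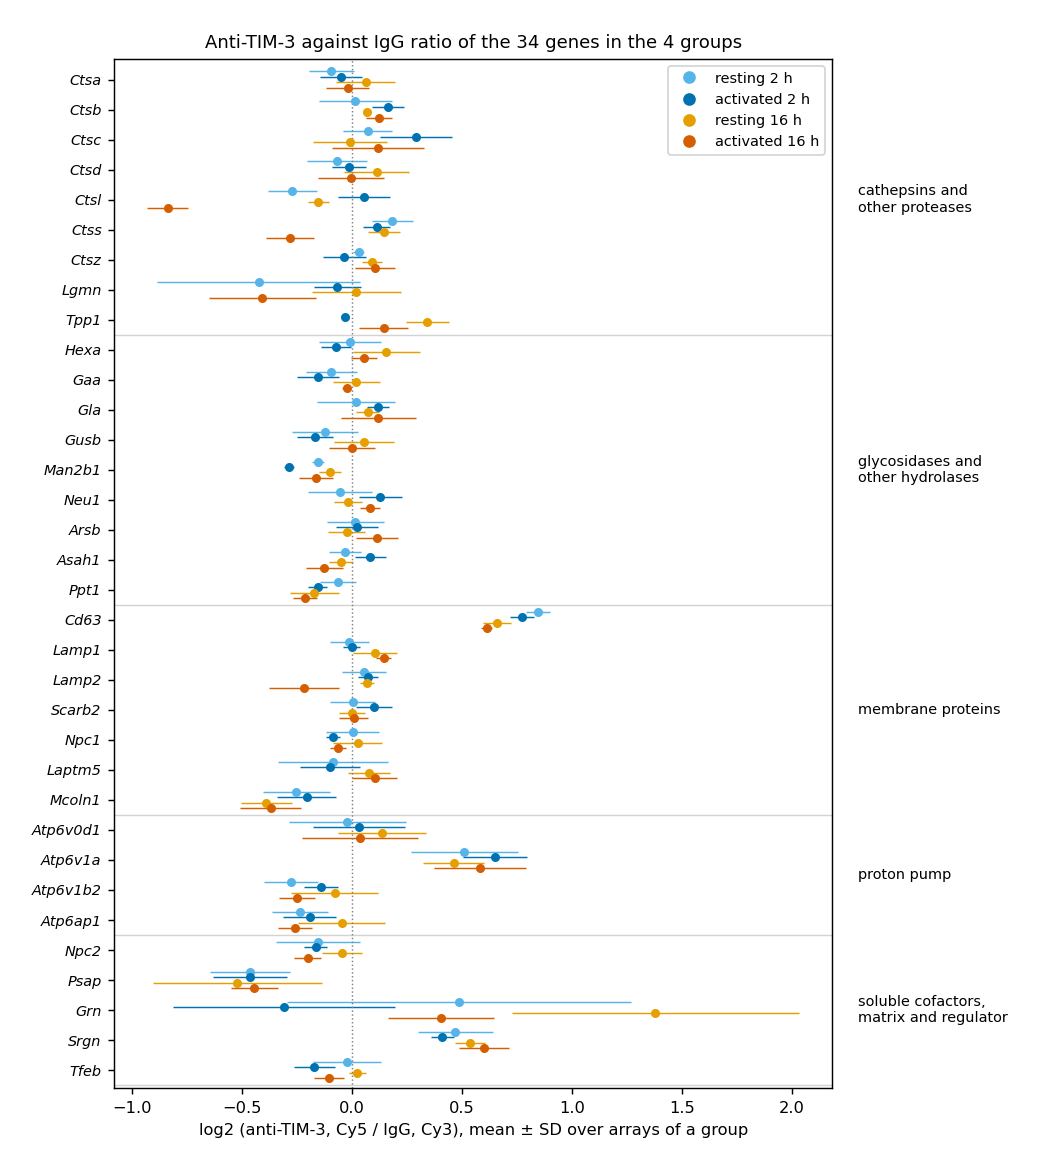
Log2 ratio of anti-TIM-3 (Cy5) to IgG (Cy3) on the horizontal axis for the 34 genes, grouped by class, with the mean (point) and SD (bar) over the arrays of each of the 4 groups. Cd63, Atp6v1a and Srgn lie right of 0 in all groups, Ctsl in activated cells at 16 h lies farthest left, at -0.84, and Grn has the widest bars; with median centring in place of loess the genes left of 0 move to the right, Ctsl to -0.05.

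Cd63, the tetraspanin of the granule membrane, had the largest ratio of the set in 3 of the 4 groups. Its ratios on replicates 1 to 4 were 0.87, 0.82, 0.78 and 0.90 in resting cells at 2 h and 0.77, 0.76, 0.85 and 0.71 in activated cells at 2 h. At 16 h they were 0.69, 0.70 and 0.59 on resting replicates 2 to 4, the spot of replicate 1 being an outlier that was left out, and 0.60, 0.61, 0.65 and 0.60 in activated cells. All 15 values were above 0.5 and the groups at 2 h did not overlap those at 16 h. The group ratios were 0.84 ± 0.054 (SD, n = 4), 0.77 ± 0.054 (SD, n = 4), 0.66 ± 0.063 (SD, n = 3) and 0.61 ± 0.024 (SD, n = 4), that is 1.79-, 1.71-, 1.58- and 1.53-fold (adjusted p = 2.52e-10, 4.7e-11, 2.58e-08 and 1.91e-09). Cd63 ranked 19, 131, 44 and 126 from the highest among about 17082 genes. Its Cy3 signal alone was near 16.1 on every array: 16.09, 16.13, 16.22 and 16.02 in resting cells at 2 h, 16.21, 16.19, 16.15 and 16.32 in activated cells at 2 h, 16.01, 16.03 and 16.25 and 16.24, 16.25, 16.20 and 16.19 at 16 h, with no level comparison by antigen or time called. With Agilent's own processed signals the 4 ratios were 0.42, 0.39, 0.25 and 0.27, lower by more than 1.5 times and still called. The highest values over the alternatives were 1.65, 1.70, 1.42 and 1.62, so the size depended on the processing.

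Grn encodes progranulin, a secreted glycoprotein that is cleaved into granulins in the lysosome, and its 2 probes did not give one answer. On the brighter probe the ratios were 0.57, -0.41, 1.48 and 0.30 in resting cells at 2 h and 0.05 and -0.67 on replicates 3 and 4 in activated cells at 2 h. They were 1.71, 1.81 and 0.63 on replicates 1, 3 and 4 in resting cells at 16 h, and 0.44, 0.14, 0.72 and 0.32 in activated cells at 16 h. The 3 missing values were outlier spots. The dimmer probe gave -0.19, -0.39, -0.04 and -0.21, then -0.32, -0.34, -0.28 and -0.44, then -0.01, -0.21, 0.14 and -0.25 and last -0.13, -0.21, -0.15 and -0.30 in the same groups, all below 0 except on resting 16 h replicate 3. The largest ratios of the brighter probe were on resting 2 h replicate 3 and resting 16 h replicates 1 and 3. These are the 3 arrays left out together, in part because of these Grn values. The only call on this probe, 1.38 (adjusted p = 0.00433) in resting cells at 16 h, did not pass without replicate 3 (1.17), and the dimmer probe had -0.08 there. Without the 3 arrays the value of replicate 4 alone was left in that group (0.63), which cannot decide on the call. No direction is drawn for Grn from these probes.

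**Figure D2:**
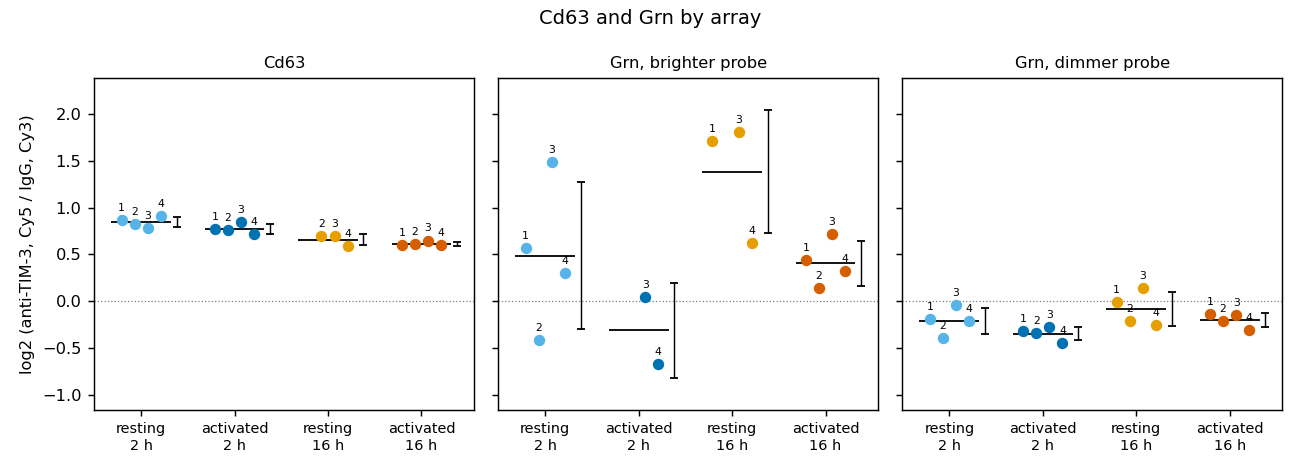
Log2 ratio of anti-TIM-3 to IgG on each array for Cd63 and for the brighter and dimmer Grn probes, by group, with points numbered by replicate, the mean as a black line and the SD as a bar. Cd63 stays between 0.59 and 0.90 on all 15 arrays with a value, while the brighter Grn probe runs from -0.67 to 1.81 and the dimmer one from -0.44 to 0.14.

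Srgn, the serglycin core protein on which granule proteases and histamine are packed, was also higher with anti-TIM-3 in each group after loess. Its ratios were 0.57, 0.42, 0.63 and 0.25 in resting and 0.37, 0.41, 0.48 and 0.38 in activated cells at 2 h. At 16 h they were 0.63, 0.50, 0.48 and 0.53 in resting and 0.58, 0.68, 0.45 and 0.70 in activated cells, so that all 16 arrays were above 0. The group values were 0.47 (adjusted p = 1.83e-05), 0.41 (adjusted p = 1.69e-05), 0.54 (adjusted p = 5.35e-06) and 0.60 (adjusted p = 3.14e-07). With Agilent's processed signals they were 0.12, 0.11, 0.17 and 0.31, and the first 3 no longer passed. The highest values over the alternatives were 1.22, 1.27, 1.31 and 1.57.

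Among the proton pump genes, Atp6v1a, the catalytic subunit of the cytosolic domain, had ratios of 0.59, 0.30, 0.82 and 0.34 in resting and 0.72, 0.54, 0.52 and 0.82 in activated cells at 2 h. At 16 h they were 0.29, 0.42, 0.53 and 0.61 in resting and 0.75, 0.36, 0.77 and 0.44 in activated cells. All 16 were above 0, and the group values were 0.51 (adjusted p = 0.0007), 0.65 (adjusted p = 1.8e-05), 0.46 (adjusted p = 0.00146) and 0.58 (adjusted p = 5.96e-05). A second Atp6v1a probe gave 0.03, 0.19, 0.01 and 0.04, of which the second alone passed, so the size rests on 1 probe. Its partner subunit Atp6v1b2 was lower in resting cells at 2 h, with -0.45, -0.26, -0.22 and -0.18 by array and -0.28 (SE 0.060, adjusted p = 0.00558) as the mean (0.0050 with median centring), and in activated cells at 16 h (-0.25). The call at 2 h did not pass without replicate 1 (-0.22). The accessory subunit Atp6ap1 was lower in 3 groups, at -0.24 (not without resting 2 h replicate 1 or 2 (-0.21 to -0.20)), -0.19 (not without activated 2 h replicate 2, 3 or 4 (-0.20 to -0.15)) and -0.26, and the membrane-domain subunit Atp6v0d1 lay between -0.02 and 0.14 with no call. The 4 pump genes therefore gave 1 gene higher and 2 lower.

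Psap, the precursor of the saposins that help hydrolases reach their lipids, was the lowest gene of the set in 3 groups and next to Ctsl in activated cells at 16 h after loess (between 0.0016 and 0.28 with median centring). Its ratios were -0.64, -0.57, -0.23 and -0.42 in resting and -0.25, -0.54, -0.43 and -0.64 in activated cells at 2 h, then -1.08, -0.22, -0.47 and -0.32 and -0.54, -0.51, -0.30 and -0.42 at 16 h. Every array was below 0. The means were -0.46 (adjusted p = 0.00653), -0.46 (adjusted p = 0.0023), -0.52 (adjusted p = 0.00242) and -0.45 (adjusted p = 0.0033), and a second probe gave -0.42, -0.45, -0.32 and -0.40, each past the threshold. In resting cells at 16 h the value was -0.27 without the 3 arrays and did not pass.

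Man2b1, the lysosomal alpha-mannosidase, showed small falls of close agreement in activated cells at 2 h, with -0.28, -0.26, -0.30 and -0.31 by array (-0.29 (SE 0.032, adjusted p = 3.22e-06)). In the other groups it was at -0.15, -0.10 and -0.16, the second of which did not pass without resting 16 h replicate 1, 2 or 3 (-0.11 to -0.08). Mcoln1, the calcium channel TRPML1 of the lysosomal membrane, had -0.35, -0.06, -0.14 and -0.28 in activated cells at 2 h (-0.21 (adjusted p = 0.0171)) and -0.39, -0.26, -0.54 and -0.36 in resting cells at 16 h (-0.39 (adjusted p = 0.00059)). The former did not pass without activated 2 h replicate 1 or 4 (-0.18 to -0.16). It was at -0.25 in resting cells at 2 h, which did not pass without resting 2 h replicate 3 (-0.18), and at -0.37 in activated cells at 16 h, while its second probe gave 0.07, 0.07, 0.03 and 0.10 with no call. The lower ratio of Mcoln1 is therefore not shared by its probes.

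Ppt1, the thioesterase that removes palmitate from proteins, was lower in activated cells at 2 h (-0.16), in resting cells at 16 h (-0.28, -0.04, -0.25 and -0.12 by array, -0.17 (adjusted p = 0.00787)) and in activated cells at 16 h (-0.22). The value in resting cells at 16 h did not pass without resting 16 h replicate 1 or 3 (-0.15 to -0.14) or without the 3 arrays (-0.08). Legumain (Lgmn), which cleaves after asparagine and matures cathepsins, was called lower in resting cells at 2 h (-0.97, 0.07, -0.62 and -0.18) and in activated cells at 16 h (-0.75, -0.18, -0.41 and -0.30). Its arrays spread widely, and the means of -0.42 (adjusted p = 0.0304) and -0.41 (adjusted p = 0.0192) became -0.24 and -0.30 without replicate 1, and neither then passed. The call at 2 h was also lost without replicate 3 (-0.36) and the call at 16 h without replicate 3 (-0.41).

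The remaining calls within groups were small. In activated cells at 2 h Ctsc, the peptidase that removes the propeptide of granule serine proteases, was at 0.29 (adjusted p = 0.00673) with 0.42, 0.23, 0.08 and 0.43 by array, and did not pass without replicate 4 (0.25). Ctsb (0.16) and the sialidase Neu1 (0.13) were also higher there, and Tfeb (-0.17), the beta-glucuronidase Gusb (-0.17), the cholesterol carrier Npc2 (-0.17) and the alpha-glucosidase Gaa (-0.15) lower. All 6 lost their call when certain single arrays were left out. Ctsb did not pass without activated 2 h replicate 4 (0.13). Neu1 did not pass without activated 2 h replicate 2, 3 or 4 (0.10 to 0.12), and Tfeb not without activated 2 h replicate 2 or 4 (-0.16 to -0.14). Gusb did not pass without activated 2 h replicate 2, 3 or 4 (-0.18 to -0.14), and Npc2 not without activated 2 h replicate 2, 3 or 4 (-0.16 to -0.15). Gaa did not pass without activated 2 h replicate 2 or 4 (-0.14 to -0.12). Dimmer second probes gave -0.10 for Ctsb, -0.08 for Neu1 and -0.005 for Gusb in activated cells at 2 h. In resting cells at 16 h Hexa, the alpha subunit of beta-hexosaminidase, was at 0.16, and did not pass without resting 16 h replicate 1 or 3 (0.11 to 0.12) or without the 3 arrays (0.02). The peptidase Tpp1 was at 0.34 on 2 arrays there. Its brighter probe lost all 4 resting 2 h arrays to outlier flags, which is why 33 genes were tested in that group, and its dimmer probe gave -0.10 in resting cells at 16 h. In activated cells at 16 h Lamp1, a heavily glycosylated membrane protein, was at 0.14, and Npc2 (-0.20) and the acid ceramidase Asah1 (-0.13) were lower. Lamp1 did not pass without activated 16 h replicate 1 (0.13), and Asah1 not without activated 16 h replicate 1 or 2 (-0.13 to -0.09).

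The clearest difference between the groups was in Ctsl, the cysteine protease cathepsin L. Its ratios were -0.39, -0.12, -0.30 and -0.27 in resting cells at 2 h, -0.02, 0.19, 0.12 and -0.07 in activated cells at 2 h, -0.10, -0.22, -0.15 and -0.15 in resting cells at 16 h and -0.90, -0.73, -0.79 and -0.93 in activated cells at 16 h. The 4 arrays of activated cells at 16 h lay below all 12 others. The group ratio there was -0.84 ± 0.093 (SD, n = 4), or 0.559 times the IgG level, and ranked 17074 of 17082 genes from the highest. Ctss, the cysteine protease cathepsin S that trims the invariant chain for antigen presentation, had 0.17, 0.26, 0.06 and 0.25 in resting and 0.14, 0.18, 0.09 and 0.04 in activated cells at 2 h. At 16 h it had 0.06, 0.15, 0.14 and 0.24 in resting and -0.42, -0.32, -0.18 and -0.21 in activated cells. It too was lower on those 4 arrays than on all others, at -0.28 ± 0.11 (SD, n = 4) there (0.51 with median centring, where Ctsl was at -0.05). The smaller values of resting cells were less firm. Ctss at 2 h (0.18) did not pass without resting 2 h replicate 2 or 4 (0.16). Ctss at 16 h (0.14) did not pass without resting 16 h replicate 2, 3 or 4 (0.11 to 0.15), and Ctsl at 16 h (-0.15) not with any 1 of the 4 arrays left out.

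Activated minus resting cells at 16 h, 0 of 34 genes were called higher and 3 lower, against 4.71% and 3.87% of all genes (8.58% in either direction), with 0 and 7 at an unadjusted p under 0.05 in limma. These were Ctsl at -0.68 (SE 0.067, adjusted p = 4.67e-06), Ctss at -0.43 (SE 0.061, adjusted p = 0.000271) and Lamp2, a membrane glycoprotein of lysosomes and granules, at -0.29 (SE 0.076, adjusted p = 0.0303). At 16 h minus 2 h in activated cells, 0 of 34 were higher and 5 lower, against 9.14% and 8.05% (17.2% in all), with 4 and 5 at an unadjusted p under 0.05. Ctsl was at -0.89 (SE 0.067, adjusted p = 7.43e-08), Ctss at -0.39 (SE 0.061, adjusted p = 0.000209), Lamp2 at -0.29 (SE 0.071, adjusted p = 0.0105), Asah1 at -0.21 (SE 0.055, adjusted p = 0.0129) and Cd63 at -0.16 (SE 0.046, adjusted p = 0.0242). The calls of Ctsl and Ctss at 16 h between activated and resting cells passed under each of 18 alternatives, with values of -0.72 to -0.53 and -0.47 to -0.28. Those of Ctsl between the times passed under each of 17, from -0.94 to -0.71, and those of Ctss under 16 of 17, the exception being median centring (-0.19). The balance of the set was less firm: with median centring most of its calls between the times in activated cells were higher. Over all genes 24.7% were then higher and 6.54% lower (31.3% in all).

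Arrays were spread over 4 slides, so these differences could be read within a slide. Activated minus resting at 16 h, Ctsl was at -0.78 to -0.72 and Ctss at -0.43 to -0.39 within the 2 slides that held both groups. Between the times in activated cells the 1 slide with both gave -0.81 for Ctsl, -0.25 for Ctss, -0.27 for Lamp2 and -0.13 for Cd63. With the slide as a block the pooled values of Ctsl were -0.68 and -0.89 and those of Ctss -0.43 and -0.40, all called.

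Lamp2 was less certain than the cathepsins. Its ratios were 0.02, 0.19, -0.04 and 0.05 in resting and 0.04, 0.10, 0.13 and 0.03 in activated cells at 2 h, 0.10, 0.07 and 0.04 on resting 16 h replicates 1, 2 and 4, and -0.39, -0.07 and -0.19 on activated 16 h replicates 1 to 3. Activated cells at 16 h were below the other groups on these arrays, but the other Lamp2 probes gave differences of 0.06 and 0.01 from resting cells. Without activated 16 h replicate 1 the difference was -0.20 from resting cells and -0.21 from 2 h, and neither passed. In all, the difference from resting cells did not pass without resting 16 h replicate 1 or 2 or activated 16 h replicate 1 or 3 (-0.30 to -0.20).

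**Figure D3:**
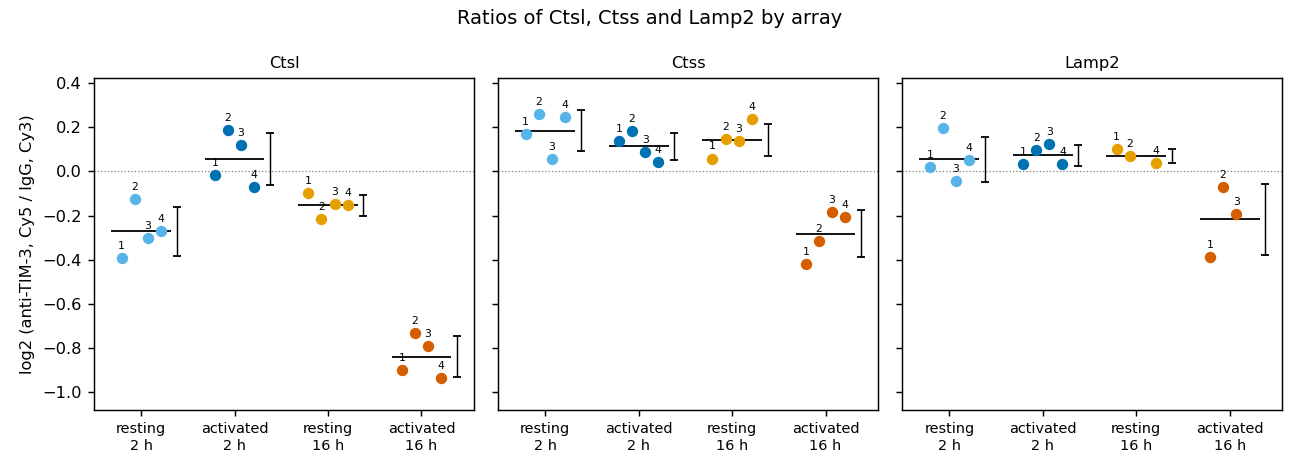
Log2 ratio of anti-TIM-3 to IgG on each array for Ctsl, Ctss and Lamp2 by group, with points numbered by replicate, the mean as a black line and the SD as a bar. Activated cells at 16 h lie lowest for each gene, with Ctsl between -0.93 and -0.73; with median centring Ctss there moves to 0.51, Lamp2 to 0.58 and Ctsl to -0.05.

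Markers of macrophages and dendritic cells, which also express both cathepsins, were read on the same arrays. In activated cells at 16 h 8 of the 13 measured were lower with anti-TIM-3 and 1 higher after loess, where 13.2% and 16.9% of all genes were. The median ratio was -0.36: Cd14 was at -0.91, Mpeg1 at -0.78, Lyz2 at -0.70 and Csf1r at -0.55, and Itgax at 0.49. Marker values with median centring are not given. At 2 h none of the 13 was called in either group (all genes 14% in resting and 33.3% in activated cells). In resting cells at 16 h 1 was higher and 1 lower (all genes 11.7% and 9.95%). Against resting cells at 16 h 5 were lower and 1 higher (median -0.28, all genes 3.87% and 4.71%). Against activated cells at 2 h 8 were lower and 1 higher (median -0.49, all genes 8.05% and 9.14%). Their part in the values of Ctsl and Ctss was not tested.

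At 2 h Ctsl was higher relative to IgG in activated than in resting cells by 0.33 (SE 0.067, adjusted p = 0.00665), the 1 gene called of 33 against 3.59% higher and 1.99% lower over all genes (5.58% in all). The 0 genes called lower compare with 2 at an unadjusted p under 0.05 in limma. Within the 2 slides that held both groups the difference was 0.32 to 0.48, and with Agilent's processed signals it was 0.31 and did not pass. In resting cells 0 of 33 genes differed between 16 h and 2 h, as 0.287% of all genes did (0.0878% higher, 0.199% lower), with 8 higher and 1 lower at an unadjusted p under 0.05 in limma. Cd63 was at -0.18 (adjusted p = 0.0895) in that comparison and at -0.16 (adjusted p = 0.0242) in activated cells. The latter no longer passed without activated 2 h replicate 3 or activated 16 h replicate 1, 2 or 4 (-0.16 to -0.13). Between activated and resting cells the ratio of Cd63 differed by -0.07 (adjusted p = 0.456) at 2 h and -0.05 (adjusted p = 0.619) at 16 h. That of Asah1 between the times was -0.17 without activated 16 h replicate 1 and then did not pass.

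The effect of IgE and antigen itself was read in the IgG-treated cells, from the Cy3 channel across arrays. After 2 h of antigen 4 of 33 genes were called higher and 9 lower than in resting cells, where 15.3% and 27.6% of all genes were (42.9% in either direction), with a median of -0.08 beside -0.04 over all genes. The hydrolases gave 1 higher and 5 lower of 9, the membrane proteins 2 and 3 of 7, the proteases 1 and 1 of 8, and neither the 4 pump genes nor the 5 soluble and regulatory genes gave a call. With the replicate number as a block 16 genes were called, beside 46.5% of all genes. The block added Lgmn (-0.73), Psap (-0.47) and the brighter Grn probe (0.71). Of the activated 2 h arrays that Grn probe had a value on replicates 3 and 4 alone. The dimmer Grn probe went the other way, from 13.72, 13.39, 13.35 and 13.58 in resting cells to 13.33, 13.12, 13.18 and 13.38. No direction is drawn for Grn here.

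Scarb2, which encodes LIMP-2, the membrane protein that carries glucocerebrosidase to the lysosome, rose the most. Its log2 Cy3 levels were 10.30, 10.07, 10.15 and 10.16 in resting cells and 11.21, 11.16, 11.30 and 11.19 after antigen. The activated arrays were all above the resting ones, and the rise was 1.04 (SE 0.075, adjusted p = 1.22e-08), or 2.06-fold. A second probe gave 1.04, the values within 2 slides were 0.88 to 1.10, and 19 alternatives ran from 1.01 to 1.16. Asah1, the acid ceramidase, went from 10.22, 10.03, 10.19 and 10.12 to 10.69, 10.61, 10.72 and 10.59 (0.51 (SE 0.054, adjusted p = 8.87e-07)). Ctsc went from 13.47, 13.35, 13.05 and 13.34 to 13.64, 13.71, 13.74 and 13.51 (0.35 (SE 0.084, adjusted p = 0.00306)). In all 3 the groups did not overlap, and Lamp2 was also higher (0.14), a call that did not pass without resting 2 h replicate 2 or 4 or activated 2 h replicate 1 or 2 (0.11 to 0.14).

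Among the calls without a block, Mcoln1 fell the most after 2 h of antigen. Its levels were 12.74, 12.89, 12.95 and 12.92 in resting cells and 12.45, 12.24, 12.35 and 12.50 after antigen, a difference of -0.49 (SE 0.065, adjusted p = 1.13e-05) that its second probe gave as -0.42 and that lay at -0.52 to -0.39 within slides. Gaa, the acid alpha-glucosidase that degrades glycogen, went from 11.47, 11.51, 11.55 and 11.53 to 11.07, 11.16, 11.05 and 11.20 (-0.40 (SE 0.053, adjusted p = 1.29e-05)). The sialidase Neu1, which works in a complex with cathepsin A, went from 12.96, 12.81, 13.09 and 12.97 to 12.70, 12.47, 12.56 and 12.62 (-0.37 (SE 0.071, adjusted p = 0.000413)). None of these 3 overlapped between the groups. Gusb (-0.32), the cholesterol transporter Npc1 (-0.31), Ctsa (-0.23), Lamp1 (-0.18), Hexa (-0.17) and Man2b1 (-0.14) were lower too. The last 4 of these lost their call when certain single arrays were left out. Ctsa did not pass without resting 2 h replicate 1, 3 or 4 or activated 2 h replicate 2 or 3 (-0.24 to -0.18). Lamp1 did not pass without resting 2 h replicate 1 or 4 or activated 2 h replicate 2 or 3 (-0.18 to -0.14). Hexa did not pass without resting 2 h replicate 2 or 4 or activated 2 h replicate 2 or 3 (-0.16 to -0.11). Man2b1 did not pass without resting 2 h replicate 1 or 3 or activated 2 h replicate 2, 3 or 4 (-0.14 to -0.11).

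After 16 h of antigen 6 of 34 genes were higher and 0 lower, against 5.3% and 7.02% of all genes (12.3% in either direction), with 8 and 0 at an unadjusted p under 0.05 in limma. Of these 4 were hydrolases, of 9 tested, and 2 membrane proteins, of 7 tested. Gla, the alpha-galactosidase deficient in Fabry disease, had levels of 10.82, 10.30, 10.51 and 10.61 in resting cells and 11.21, 10.90, 10.71 and 10.93 after antigen (0.38 (SE 0.12, adjusted p = 0.0478)), and the groups overlapped. Ppt1 went from 13.14, 13.12, 13.15 and 13.18 to 13.46, 13.30, 13.46 and 13.46 (0.27 (SE 0.049, adjusted p = 0.00153)) and Mcoln1 from 13.20, 13.07, 13.18 and 13.23 to 13.48, 13.33, 13.50 and 13.43 (0.26 (SE 0.065, adjusted p = 0.013)), both with no overlap. Laptm5, a lysosomal membrane protein of blood cells, was at 0.26, Neu1 at 0.22 and Hexa at 0.22. Ppt1 kept its call with any single array left out, as did Mcoln1, which lost it without the 3 arrays (0.28). Gla did not pass without resting 16 h replicate 2, 3 or 4 or activated 16 h replicate 1, 2 or 4 (0.28 to 0.39). Laptm5 did not pass without resting 16 h replicate 1, 2, 3 or 4 or activated 16 h replicate 1, 2 or 3 (0.23 to 0.27). Neu1 did not pass without resting 16 h replicate 2, 3 or 4 or activated 16 h replicate 1, 2, 3 or 4 (0.18 to 0.25), and Hexa not without resting 16 h replicate 3 or activated 16 h replicate 1 or 2 (0.20 to 0.21). The block by replicate number called 8 genes, beside 16.9% of all genes, adding Ctsz (0.22), the carboxypeptidase cathepsin X, and the brighter Grn probe.

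The antigen effect at 16 h was then set against that at 2 h in a test of the difference itself, a comparison chosen after the data had been seen. It differed for 10 of 33 genes, 7 in the direction of higher at 16 h and 3 lower, against 20.6% and 12.7% of all genes (33.4% in all), and for 16 with the replicate number as a block (37.6% of all genes). The 7 were Mcoln1 (0.75 (SE 0.092, adjusted p = 1.03e-05)), Neu1 (0.59 (SE 0.10, adjusted p = 0.000221)), Npc1 (0.41), Gaa (0.40), Hexa (0.38), Ppt1 (0.36) and Laptm5 (0.33). The 3 were Scarb2 (-0.91 (SE 0.11, adjusted p = 6.53e-06)), Ctsc (-0.47 (SE 0.12, adjusted p = 0.00576)) and Asah1 (-0.38 (SE 0.076, adjusted p = 0.000985)), which had all been called higher at 2 h. Scarb2 at 16 h was at 10.26, 9.88, 10.00 and 10.06 in resting and 10.33, 10.15, 10.12 and 10.12 in activated cells, with overlap, and its antigen effect there was 0.13 (adjusted p = 0.314). The block added Ctsa (0.24), Ctsz (0.28), Lgmn (0.69), Gusb (0.30), Lamp1 (0.20) and Psap (0.53). The call of Npc1 was lost without the 3 resting arrays (0.45).

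**Figure D4:**
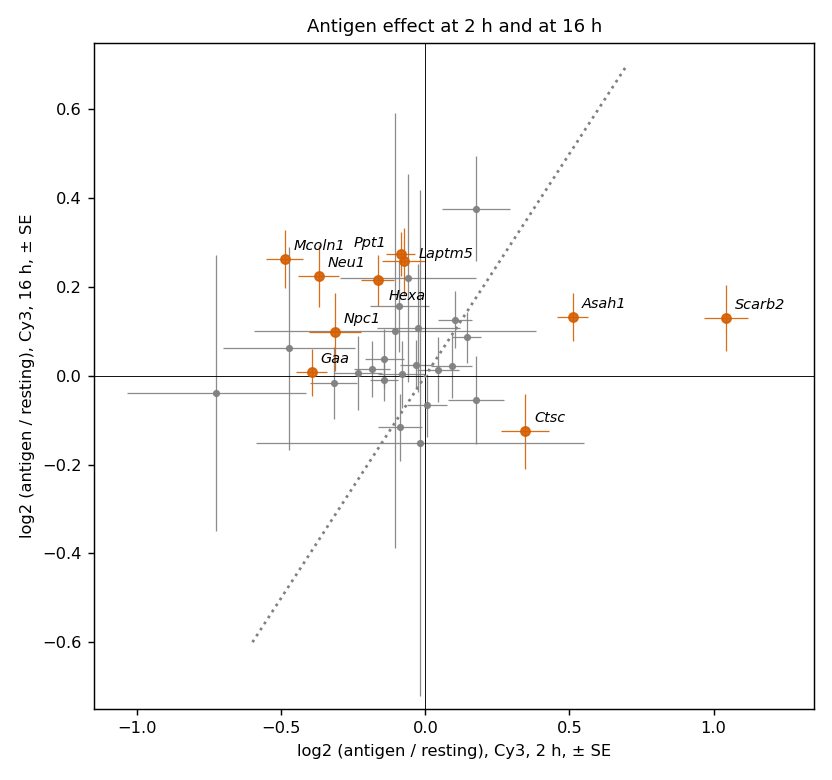
Antigen effect in IgG-treated cells as a log2 difference of Cy3 levels, at 2 h on the horizontal and at 16 h on the vertical axis, each with its standard error, for the genes measured at both times other than Grn. Orange points are the 10 genes whose effect differed between the times and the dotted line marks equal effects; Scarb2 lies far right at 1.04 and 0.13, and Mcoln1 at the upper left at -0.49 and 0.26.

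More of these genes were called between the times than between antigen and rest. In resting IgG-treated cells 10 of 33 were higher and 5 lower at 16 h than at 2 h, against 24.1% and 22.8% of all genes (46.9% in all). In activated cells 14 of 34 were higher and 6 lower, against 33.9% and 26.2% (60.1% in all), with medians of 0.09 and 0.24 beside -0.01 and 0.04 over all genes. The shares were thus close to those of all genes. The hydrolases gave 5 higher and 1 lower of 9 in resting and 6 and 2 of 9 in activated cells, and the membrane proteins 1 and 3 of 7, and 2 and 3 of 7.

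In resting cells Ctsc rose most among the calls without a block, from 13.47, 13.35, 13.05 and 13.34 at 2 h to 14.01, 13.96, 13.86 and 13.86 at 16 h (0.62 (SE 0.084, adjusted p = 1.37e-05)). Hexa went from 13.76, 13.92, 13.79 and 14.04 to 14.43, 14.38, 14.32 and 14.38 (0.50 (SE 0.057, adjusted p = 2.07e-06)) and Ppt1 from 12.59, 12.65, 12.61 and 12.74 to 13.14, 13.12, 13.15 and 13.18 (0.50 (SE 0.049, adjusted p = 3.78e-07)). All 3 were higher on every 16 h array than on any 2 h array, and the share of all genes for which this holds is not given. Ctsa (0.35), Mcoln1 (0.30), Man2b1 (0.28), Atp6ap1 (0.25), Asah1 (0.24), the arylsulfatase Arsb (0.23) and Npc2 (0.23) rose less, and Npc2 did not pass without the 3 arrays (0.11) or without resting 2 h replicate 2 or 3 or resting 16 h replicate 1 (0.15 to 0.22).

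The largest fall in resting cells was that of Gla, from 11.45, 11.71, 11.39 and 11.81 to 10.82, 10.30, 10.51 and 10.61 (-1.03 (SE 0.12, adjusted p = 2.08e-06)), with -1.25 to -0.88 within slides. A second Gla probe gave 0.02 and 0.04 for time in resting and activated cells. Its mean log2 intensity was 6.48, against 11.25 for the first probe. It passed the background flag on 7 (Cy3) and 9 (Cy5) of the 16 arrays, so it cannot decide on this fall, which rests on 1 probe. Laptm5 went from 13.33, 13.44, 13.06 and 13.34 to 12.73, 12.78, 12.70 and 12.72 (-0.56 (SE 0.075, adjusted p = 1.18e-05)) and Npc1 from 9.43, 9.71, 9.58 and 9.91 to 9.18, 8.97, 9.07 and 9.23 (-0.55 (SE 0.089, adjusted p = 8.32e-05)), neither with overlap. Atp6v1b2 was at -0.48 and Lamp2 at -0.41.

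In activated cells the largest rise was that of Lgmn, from 9.30, 8.77, 9.19 and 9.47 at 2 h to 10.73, 9.71, 10.23 and 10.49 at 16 h (1.11 (SE 0.31, adjusted p = 0.00553)). Mcoln1 went from 12.45, 12.24, 12.35 and 12.50 to 13.48, 13.33, 13.50 and 13.43 (1.05 (SE 0.065, adjusted p = 5.36e-10), or 2.07-fold, with 1.07 on its second probe and 1.07 within a slide). Psap went from 12.56, 12.24, 12.42 and 12.76 to 13.84, 13.03, 13.33 and 13.60 (0.95 (SE 0.23, adjusted p = 0.00179)). Every 16 h array lay above every 2 h array in these genes, and the share of all genes for which this holds is not given. Hexa (0.88), Ppt1 (0.86), Neu1 (0.65), Ctsa (0.59), Atp6ap1 (0.43), Man2b1 (0.42), Npc2 (0.31), Gaa (0.29), Lamp1 (0.29) and Arsb (0.29) were higher as well. Tpp1 was at 0.52 from a single activated 2 h array on its brighter probe and at 0.78 on the dimmer one, which had all its arrays.

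Scarb2 fell in activated cells from 11.21, 11.16, 11.30 and 11.19 at 2 h to 10.33, 10.15, 10.12 and 10.12 at 16 h (-1.03 (SE 0.075, adjusted p = 3.95e-09)), with -1.03 on its second probe and -1.13 within a slide, while in resting cells it was at -0.12 (adjusted p = 0.208). Gla went from 11.80, 11.71, 11.80 and 11.76 to 11.21, 10.90, 10.71 and 10.93 (-0.83 (SE 0.12, adjusted p = 1.16e-05)), and Lamp2 from 14.41, 14.35, 14.28 and 14.30 to 13.91, 13.85 and 13.83 on 3 arrays (-0.47 (SE 0.054, adjusted p = 2.86e-06)). Of the other Lamp2 probes 1 went the opposite way, at 0.05 in resting and 0.07 in activated cells, so no direction is drawn for Lamp2 over time. The other probes had mean log2 intensities of 13.25 and 6.56, beside 14.08 for the first. The dimmest passed the background flag on 15 (Cy3) and 14 (Cy5) of the 16 arrays. Laptm5 (-0.23), Ctsd (-0.18), the main aspartic protease of lysosomes, and Asah1 (-0.14) were lower by less. Laptm5 did not pass without activated 2 h replicate 4 (-0.19). Ctsd did not pass without activated 2 h replicate 1 or 2 or activated 16 h replicate 2 or 3 (-0.19 to -0.13), and Asah1 not without activated 2 h replicate 1 or 3 or activated 16 h replicate 1 or 3 (-0.13 to -0.11). Srgn and Cd63 were at -0.01 and -0.02 over time in resting cells and at -0.03 and 0.00 in activated cells, none of them called, and Tfeb was at -0.09 and -0.12.

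The cathepsins Ctsl, Ctss, Ctsb and Ctsz had levels that followed the replicate number of the labels more than the treatment. Over all 16 arrays the replicate number took up 73.6% of the variance of the log2 Cy3 level of Ctsl, 74.5% for Ctss, 72% for Ctsb and 89.5% for Ctsz, against 6.98% for the median gene. Ctsl had 14.20, 12.50, 13.42 and 14.18 in resting cells and 13.93, 12.61, 13.29 and 14.05 in activated cells at 2 h. It had 15.02, 13.26, 14.00 and 14.71 in resting and 15.05, 13.13, 14.29 and 14.92 in activated cells at 16 h, in the order of replicates 1 to 4. Replicate 2 was the lowest in each of the 4 groups. Ctss had 13.91, 11.93, 13.18 and 14.22, then 13.81, 12.05, 13.15 and 14.14, then 14.99, 13.22, 14.05 and 14.80 and last 14.74, 12.85, 14.06 and 14.81, again lowest in replicate 2. The means of the replicate numbers spanned 1.68 for Ctsl, 1.98 for Ctss, 1.06 for Lgmn, 0.81 for Ctsz and 0.77 for Psap, 0.17 for Ctsd and 0.12 for the median gene.

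The mean Cy3 level of the 13 macrophage and dendritic cell markers was likewise lowest in replicate 2 in each group, with 10.59, 9.36, 9.97 and 10.37 on replicates 1 to 4 in resting cells at 2 h and 10.40, 9.31, 9.93 and 10.23 in activated cells at 2 h. At 16 h it was 10.88, 9.63, 10.06 and 10.35 in resting and 10.47, 9.44, 10.00 and 10.42 in activated cells. The part of these cells in the cathepsin levels was not tested. By contrast the treatment group took up 97.8% of the variance for Ppt1, 96.7% for Hexa, 96.1% for Scarb2 and 96.0% for Mcoln1, beside 71.4% for the median gene.

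**Figure D5:**
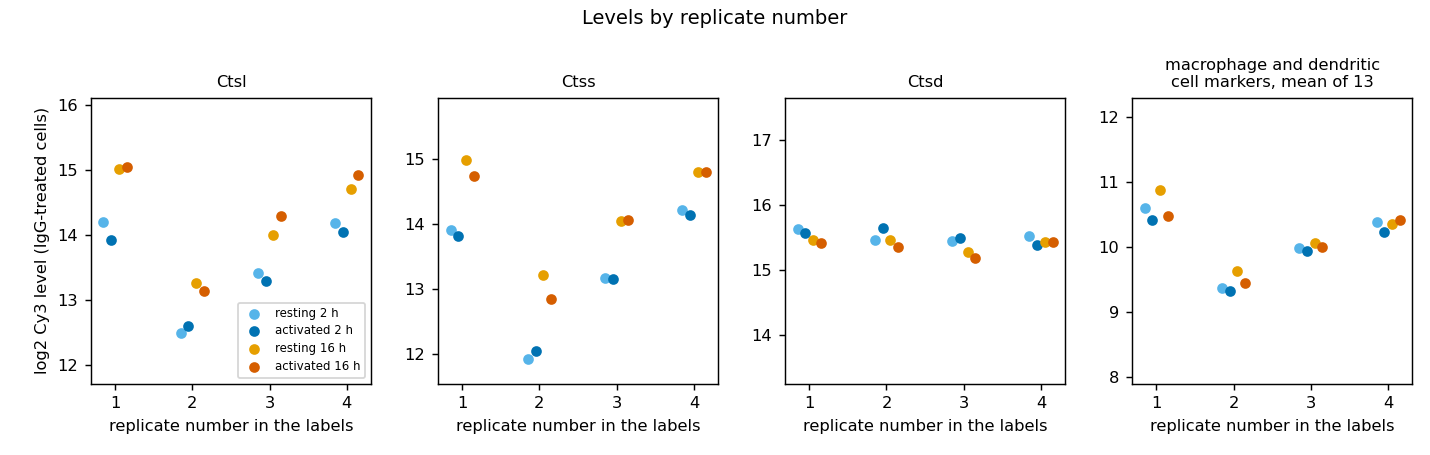
Log2 Cy3 level in IgG-treated cells against the replicate number for Ctsl, Ctss, Ctsd and the mean of 13 macrophage and dendritic cell markers, with 1 point for each array, coloured by group; the panels have axes of equal length with different starts. Ctsl, Ctss and the markers are lowest in replicate 2 in all 4 groups, while Ctsd stays between 15.18 and 15.65.

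With the replicate number as a block, which takes this spread out, further level changes over time passed. In resting cells Ctss (0.96), Ctsl (0.67), Lgmn (0.42) and Psap (0.42) were higher at 16 h, Gusb (-0.17) lower, and 21 genes were called in place of 15, while the share of all genes called went from 46.9% to 51.1%. In activated cells Ctsl (0.88), Ctss (0.82), Ctsz (0.25), Ctsb (0.24) and Gusb (0.14) were higher and Atp6v1b2 (-0.23) lower, and 27 genes were called in place of 20, against 60.1% and 63.2% of all genes. The brighter Grn probe was lower in both (-0.42 and -0.63), while its dimmer probe, without the block, was higher (0.37 and 0.87). In the anti-TIM-3 channel Ctsl was at -0.01 between the times in activated cells.

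A list of 99 other genes of the lysosome, its pump, its sorting receptors and its regulators, of which 96 were tested, was set beside the 34. After 2 h of antigen 9 of the 96 were higher and 40 lower, beside 15.3% and 27.6% of all genes. Among the 29 other lysosomal enzymes 0 were higher and 19 lower with a median of -0.30. Sgsh, the heparan sulfamidase, was at -1.09 and the cathepsin Ctso at -0.83, while the mTORC1 regulator Rragd (0.68) and the pump subunit Atp6v1h (0.52) were highest, and 5 of 13 other pump subunits rose and 0 fell. After 16 h of antigen the counts were 7 and 3 (all genes 5.3% and 7.02%), with the macrophage-rich membrane protein Cd68 at 0.94 and the protease inhibitor Cstb at 0.44. The antigen effect was higher at 16 h than at 2 h for 36 of the 96 and lower for 7 (enzymes 17 and 0 of 29), beside 20.6% and 12.7% of all genes, with Cd68 at 1.08 and Sgsh at 1.00. Over time in activated cells 51 of the 96 rose and 20 fell, beside 33.9% and 26.2% of all genes, with 22 and 1 of the 29 enzymes (median 0.64) and 2 and 8 of the 13 pump subunits. Sgsh (1.78) and Naglu (1.52), both of heparan sulfate breakdown, rose most.

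In the antibody ratio the same list of 96 gave 8 higher and 14 lower in resting cells at 2 h (all genes 7.07% and 6.92%) and 12 and 28 in activated cells at 2 h (all genes 17.1% and 16.3%). At 16 h the counts were 15 and 16 in resting (all genes 11.7% and 9.95%) and 15 and 29 in activated cells (all genes 16.9% and 13.2%). Against resting cells at 16 h the ratio of activated cells was higher for 1 and lower for 11 (all genes 4.71% and 3.87%), with the elastase inhibitor Serpinb1a at -0.57 and Cd68 at -0.52. Between 16 h and 2 h in activated cells 7 were higher and 12 lower (all genes 9.14% and 8.05%), the transcription factor Tfec at -0.76, the mannose 6-phosphate receptor Igf2r at -0.56, and the cystatin Cst7 at 0.56. At 2 h 2 were higher in activated than in resting cells and 0 lower (all genes 3.59% and 1.99%). Between the times in resting cells 0 were higher and 1 lower (all genes 0.0878% and 0.199%).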

How the data were processed

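The 16 arrays were 2-colour Agilent slides read with Feature Extraction (9 per the submitters' processing notes, 9.1.3.1 per the file headers). Per the file headers, the deposited scanner files hold spot intensity values (mean and background signals and Agilent's processed signals) on a linear scale and log10 ratios of red over green. The deposited value table equals those log10 ratios (largest difference 0), and 23.8% of them are 0. The intensities were background-corrected here (normexp, offset 50). Loess within each array followed, with weight 0 for control and outlier spots. Of 45018 spots 1639 were controls, and repeated spots were averaged to 41174 probes. The offset understates changes of dim genes. Levels are log2 Cy3 after Aquantile normalization between arrays.

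Kept probes exceeded background (Agilent's flag, Cy3 or Cy5) on 3 or more of the 4 arrays of some group, and each gene was represented by its brightest kept probe. Values of other probes are given for some genes and comparisons only. One probe matched to Arsb by accession alone was left out. Fits used limma 3.58.1 in R 4.3.3 (lmFit, eBayes, 4 group means over 16 arrays, two-sided, Benjamini-Hochberg adjusted p under 0.05 over all genes), with data.table (version 1.17.8), pandas 2.3.3 and matplotlib 3.10.9. A difference that passes is called. Where groups are said not to overlap, or all arrays of a group to lie above or below others, this describes the arrays of the gene named. The share of all genes without overlap is not given, so the separation of a gene is not a result beyond its call. On simulated arrays of 22672 probes, ratio changes of 0.5 and 1 (log2) were called in 97% and 100% of changed probes and level changes in 89% and 95%, with 2.96% and 6.12% of the calls false. The simulated noise was normal and independent between arrays, with no missing spots, dye bias, slide effect or shared replicate number. These rates therefore check the fit and need not hold for the arrays of this study. The number of arrays limits the precision.

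Cy3 levels of arrays with the same replicate number deviated together: the correlations of their deviations from the group means were 0.34 to 0.64 for replicate 1, 0.48 to 0.68 for replicate 2, 0.11 to 0.25 for replicate 3 and 0.23 to 0.32 for replicate 4. The pairing is thus taken from the data, by numbers the labels give.

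All 34 genes are accounted for. Cd63 and Grn are given on every array, in each comparison the 3 called genes with the largest rise and the 3 with the largest fall by array, and of other lysosomal genes up to 2 rises and 2 falls. Members, lists and tests were chosen with earlier results of these data known. Values of single macrophage markers were picked after they were seen. Alternatives were the background offset, median centring, Agilent's processed signals, filters, the mean of probes, the slide or replicate number as a block, only the groups compared, Cy5 for Cy3, quantile normalization and leaving out each array. Leaving out the 3 resting arrays together, and the antigen effect between the times, were added after seeing the data.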

Additional observations from a re-analysis of the deposited data

Results flagged for a closer look

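Within groups of 4 arrays, 11 of 252 gene and group combinations (4.37%) had 1 array far from the others, where chance gives about 1 in 20. In the log2 ratio these were Ppt1 on resting 2 h replicate 3 (-0.19), Npc1 on resting 16 h replicate 3 (0.19) and Atp6v1b2 on activated 2 h replicate 1 (-0.027). Atp6ap1 (-0.14) and Npc2 (-0.11) stood apart on activated 16 h replicate 3. In the log2 Cy3 level they were Ctsd on resting 16 h replicate 3 (15.27), Atp6v1a on resting 16 h replicate 1 (10.45) and Npc2 on activated 2 h replicate 1 (13.60). Of the activated 16 h arrays, replicate 1 stood apart for Scarb2 (10.33), replicate 2 for Ppt1 (13.30) and replicate 3 for Atp6v0d1 (12.88).

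The other results listed are differences between groups in limma, all with a Benjamini-Hochberg adjusted p under 0.05. In the anti-TIM-3 ratio, activated minus resting cells gave 0.33 for Ctsl at 2 h, and -0.68 for Ctsl, -0.43 for Ctss and -0.29 for Lamp2 at 16 h. In activated cells, 16 h minus 2 h gave -0.89 for Ctsl, -0.39 for Ctss, -0.29 for Lamp2, -0.21 for Asah1 and -0.16 for Cd63.

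The antigen effect on the Cy3 level of IgG-treated cells differed between 16 h and 2 h for 10 genes. It was higher at 16 h by 0.75 for Mcoln1, 0.59 for Neu1, 0.41 for Npc1, 0.40 for Gaa, 0.38 for Hexa, 0.36 for Ppt1 and 0.33 for Laptm5. For Scarb2 the difference was -0.91, for Ctsc -0.47 and for Asah1 -0.38.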

How the results depend on the processing

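Of the values for single genes under the alternatives, 1907 kept their call and direction, 4856 stayed without a call with the same sign and 409 without a call with the other sign. A further 218 kept their direction and no longer passed, 137 came to pass and 70 changed sign with a call under one or both settings. Nearly all of the last were within-group ratios under median centring, where the median of all genes moved by more than 0.1, and the values relative to 0 were as follows. In resting cells at 2 h Ctsa 0.37, Ctsd 0.63, Ctsl 0.25, Hexa 0.55, Gaa 0.28, Gusb 0.32, Man2b1 0.44, Neu1 0.43, Asah1 0.27, Ppt1 0.39, Lamp1 0.53, Laptm5 0.42, Mcoln1 0.21, Atp6v0d1 0.47, Atp6v1b2 0.0050, Atp6ap1 0.16, Npc2 0.41, Psap 0.0016 and Tfeb 0.15. In activated cells at 2 h Ctsa 0.45, Ctsd 0.79, Ctsz 0.54, Tpp1 0.60, Hexa 0.55, Gaa 0.24, Gusb 0.30, Man2b1 0.37, Ppt1 0.34, Lamp1 0.60, Npc1 0.20, Laptm5 0.47, Mcoln1 0.28, Atp6ap1 0.24, Npc2 0.43, Psap 0.017 and Tfeb 0.020. In resting cells at 16 h Ctsc 0.60, Ctsl 0.48, Man2b1 0.55, Neu1 0.54, Asah1 0.37, Ppt1 0.39, Scarb2 0.40, Mcoln1 0.16, Atp6v1b2 0.29, Atp6ap1 0.45, Npc2 0.56 and Psap 0.042. In activated cells at 16 h Ctsa 0.69, Ctsd 0.90, Ctss 0.51, Lgmn 0.088, Gaa 0.56, Gusb 0.64, Man2b1 0.67, Asah1 0.39, Ppt1 0.52, Lamp2 0.58, Npc1 0.37, Mcoln1 0.36, Atp6v1b2 0.20, Atp6ap1 0.37, Npc2 0.56, Psap 0.28 and Tfeb 0.17. With the mean of probes Lamp2 was at -0.12 in resting cells at 2 h and -0.13 at 16 h, and Grn at 1.13 over time in activated cells. With Cy5 in place of Cy3 Lamp2 was at -0.20 for antigen at 16 h and Cd63 at -0.16 over time in activated cells.

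Under median centring 28, 28, 32 and 32 of the genes were called in the groups, in the order resting and activated at 2 h, then at 16 h, with medians of 0.41, 0.52, 0.56 and 0.66. The difference of activated from resting cells at 16 h had a median of 0.089, and that of 16 h from 2 h in activated cells had 9 calls (8 higher and 1 lower) and a median of 0.15. Over all genes 31.3% were called in the latter (24.7% higher and 6.54% lower). With only the groups compared in the fit, which leaves fewer arrays to estimate the spread, the calls were 3 in resting cells at 2 h, 7 in resting cells at 16 h and 9 between the times in activated cells. With Agilent's processed signals they were 0 for activated minus resting at 2 h, 3 between the times in activated cells and 3 for antigen at 16 h. Without the 3 resting arrays they were 4 in resting cells at 16 h and 3 for antigen at 16 h. The cause of these changes, other than fewer arrays, was not tested. With 1 array left out at a time, the genes called ranged, for the 4 ratios, the 4 ratio differences, antigen at 2 h and 16 h, time in resting and activated cells and the antigen effect between the times, over 8 to 10, 6 to 14, 5 to 10, 12 to 17, 1 to 2, 2 to 4, 0 to 3, 2 to 6, 8 to 13, 2 to 5, 14 to 16, 18 to 20 and 10 to 13. Their medians ranged over -0.058 to -0.018, -0.059 to -0.0079, 0.0033 to 0.072, -0.045 to 0.037, -0.0076 to 0.067, -0.086 to -0.030, 0.052 to 0.10, -0.047 to 0.033, -0.15 to -0.0015, 0.017 to 0.12, 0.0030 to 0.14, 0.16 to 0.30 and 0.10 to 0.22.

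The replicate number as a block called 2 genes in place of 1 for activated minus resting at 2 h and 16 in place of 10 for the antigen effect between the times, and it removed no call in the levels. In the ratios the deviations of every pair correlated above 0.1 for replicate 2 alone (0.23 to 0.47), with -0.45 to 0.64 over the other numbers, and the block added the brighter Grn probe to 3 ratio differences (-0.98, -0.78 and 0.90).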
